A study of Homo sapiens with 2 samples.

Results

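Metallothioneins are short, cysteine-rich proteins that bind zinc and copper, and their human genes lie together in a cluster on chromosome 16. The family was followed through 8 probes of an Illumina beadchip, taken by their probe identifiers from a table of 47323 probes, which makes 8 of the 20046 genes named on the array. The 8 genes are MT2A, MT1A, MT1E, MT1F, MT1G, MT1H, MT1M and MT1X. The platform annotation gave these symbols for 7 of the probes. It lists no gene for the probe ILMN_1691156, which is called MT1A after the symbol that came with the list of members. The annotation named 7 more probes of the family, which were examined beside the 8.

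The cells were TIVE-LTC, a human umbilical vein endothelial line immortalized with telomerase that carries Kaposi's sarcoma-associated herpesvirus as a long-term infection. The ABC294640 group was 1 array of cells given 60 µM ABC294640 for 24 h; this compound blocks SphK2, an enzyme that makes sphingosine 1-phosphate. The vehicle group was 1 array of the same line given vehicle for 24 h. Both groups thus carry the virus, and only 1 line was used. The line is endothelial by origin, but only 2 of 12 endothelial markers were detected on each array. With 1 array per group there was no spread between cultures and no test, so every difference below compares 2 arrays and is described by its size alone.

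Free zinc in the cell is sensed by the transcription factor MTF1, which binds metal response elements in metallothionein promoters. The proteins then take up the metal. Glucocorticoids and oxidants are also known to raise metallothionein mRNA. MT2A and the MT1 genes are expressed in many tissues, whereas MT3 is known from the brain and MT4 from stratified epithelia.

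Of the 8 metallothionein probes, 7 were brighter on the ABC294640 array, and all 7 were at least 8-fold higher there after normalization, a size reached by 0.384% of the probes detected on either array. The eighth, MT1M, was detected on neither array. A probe was taken as detected when its deposited detection p-value, the share of negative controls at least as bright, was under 0.01. By this rule the ABC294640 array detected 7 of the 8 and the vehicle array 5. Deposited signals, in intensity units with the background still included, summed to 77372.7 over the 8 probes with ABC294640 and to 3890.5 with vehicle, a 19.9-fold difference. That is 0.474% of the summed signal of all probes with ABC294640 and 0.0204% with vehicle. In RNA from whole cultures, a change in the number of cells that express a gene and a change in RNA per cell cannot be told apart.

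**Figure D1:**
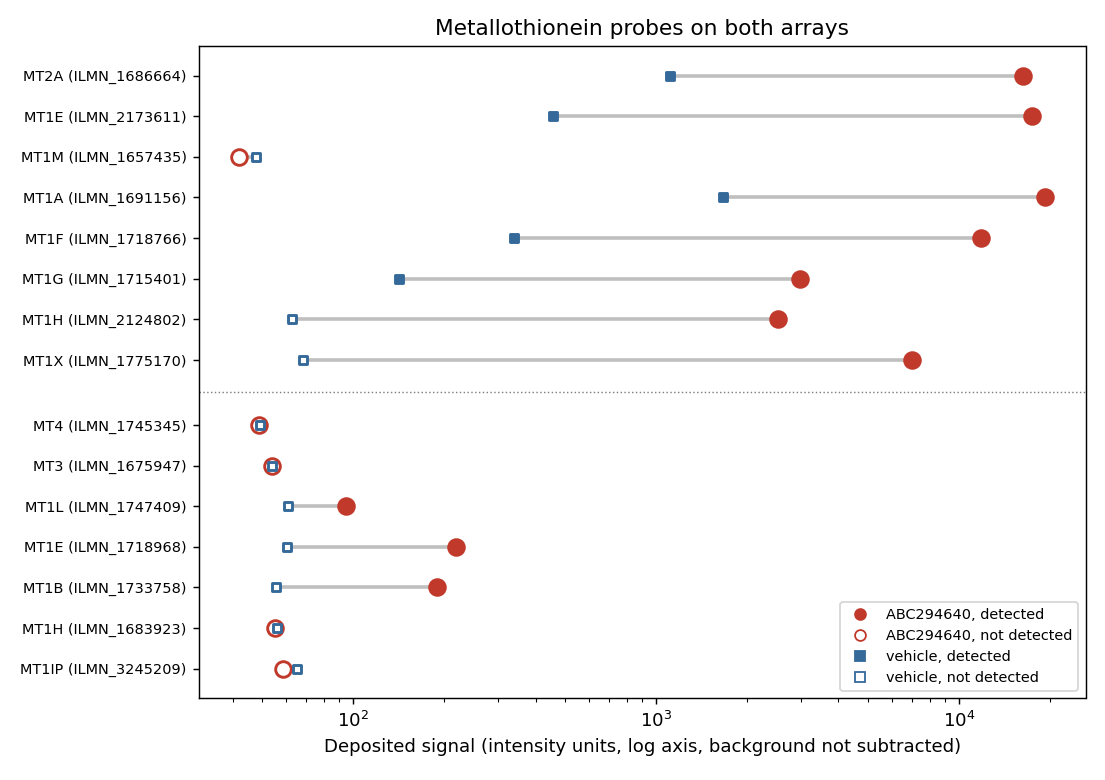
Deposited signal (intensity units, log axis) of the 15 metallothionein probes on the ABC294640 array (circles) and the vehicle array (squares), with open symbols where the probe was not detected; the 8 members stand above the dotted line. For 7 of the 8 members the ABC294640 symbol lies far to the right of the vehicle symbol, while for MT1M both lie at background.

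MT2A encodes the single human metallothionein-2. Its probe had a signal of 16316.9 units with ABC294640 and 1110.2 units with vehicle. After background correction and quantile normalization its log2 ratio of ABC294640 over vehicle was 4.18, or 18.2-fold higher. The MT1A probe had 19276.3 units with ABC294640 and 1662.3 with vehicle, a log2 ratio of 3.79 or 13.8-fold. These were the smallest ratios among the members detected on both arrays, and these members had the highest vehicle signals among them. The scanner table used here does not say whether a spot was saturated, which was not tested. The brightest signal of any probe with ABC294640 was 24977.3 units.

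MT1E, MT1F and MT1G, functional genes of the MT1 group, differed more. MT1E had 17430 units with ABC294640 and 457.6 with vehicle, a log2 ratio of 5.72 or 52.6-fold. MT1F had 11794 units with ABC294640 and 339.7 with vehicle, a log2 ratio of 5.64 or 49.7-fold. MT1G had 2988.1 units with ABC294640 and 141.7 with vehicle, a log2 ratio of 5.32 or 39.9-fold. All 3 were detected on both arrays, so both ends of their ratios were measured; the vehicle signal of MT1G was the closest of them to the lowest detected vehicle signal, 81.2 units.

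MT1X and MT1H were detected on the ABC294640 array only. MT1X had 7005.7 units with ABC294640 and 68.2 with vehicle, where its detection p-value was 0.0584. MT1H had 2519.6 units with ABC294640 and 62.9 with vehicle, where its detection p-value was 0.165. Since their vehicle level is only bounded, the fold was taken against the dimmest normalized value that counted as detected with vehicle. On that normalized scale MT1X was at least 189-fold higher and MT1H at least 74-fold higher with ABC294640. Such a bound covers the unmeasured vehicle level only and moves with the processing. The deposited signals, background included, differ by 103-fold for MT1X and 40.1-fold for MT1H, and without background correction the log2 bounds were 6.25 for MT1X and 4.91 for MT1H, against 7.56 and 6.21 as reported.

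MT1M was at background in both groups. Its probe had 42.1 units with ABC294640, with a detection p-value of 0.969, and 47.9 units with vehicle, with a detection p-value of 0.858, so no fold is given.

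Read against all probes, these are large ratios. With 18233 probes detected on either array, 7.38% had a ratio of 2-fold or more towards ABC294640 and 6.96% towards vehicle, while 7 of the 8 members were higher and 0 lower. The members were chosen with earlier results of these data known, so the comparison with all probes is a description and no test. At 16-fold or more, 0.197% of the 18233 probes were higher; these are 36 probes, and 6 of them are members, all but MT1A and MT1M. At 32-fold or more, 0.115% were higher, or 21 probes, of which 5 are members. These counts move with the processing. Without background correction MT1G, at a log2 ratio of 4.58, and MT1H, at 4.91, lay under 32-fold, and without normalization between arrays MT2A, at 3.93, lay under 16-fold. The median log2 ratio over the 8 members was 5.48, with MT1X and MT1H at their bounds and MT1M at its measured ratio, beside -0.07 over the 18233 probes. The ratio of MT1X ranked 1 among those probes and that of MT1H ranked 7, both at their bounds. The first rank was narrow, with MT1X at 7.56 and a probe of the small RNA RN7SK at 7.55. Without background correction MT1X had 6.25. That RN7SK probe was never under 6.41 across the ways to scale or correct background, so MT1X did not keep the first rank there. MT1E, MT1F, MT1G, MT2A and MT1A ranked 14, 16, 19, 32 and 43. MT1X and MT1H passed the detection filter only through the array where they were bright. No p-value or count of significant probes can be given from 1 array per group.

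**Figure D2:**
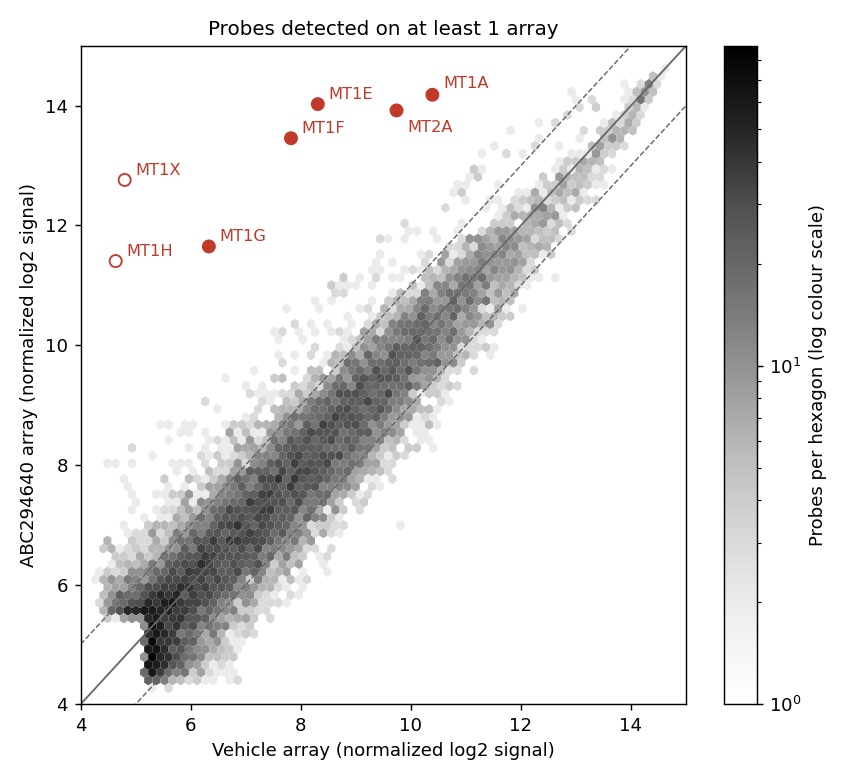
Normalized log2 signal on the ABC294640 array (y axis) against the vehicle array (x axis) for the 18233 probes that either array detected, as a density of hexagons, with equality (solid) and 2-fold (dashed) lines. The 7 detected metallothionein members (red; open where the vehicle array did not detect the probe) lie along the upper left edge of the cloud.

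Further probes of the family gave smaller or no signals. MT1B, a functional MT1 gene, had 189.6 units with ABC294640 and 55.7 with vehicle and was detected with ABC294640 only, with a bound of 5.46-fold on the normalized scale and a ratio of deposited signals of 3.40. Over 6 ways to scale or correct background, its log2 bound ran from 1.48 to 2.70. MT1L, a transcribed pseudogene, had 94.8 units with ABC294640 and 61.1 with vehicle, a ratio of deposited signals of 1.55. Its bound on the normalized scale was 1.94-fold, and the log2 bound ran from 0.47 to 1.28. MT3 had 53.8 units with ABC294640 and 54 with vehicle, and MT4 had 49 with ABC294640 and 49.3 with vehicle. The transcribed pseudogene MT1IP had 58.4 units with ABC294640 and 65.2 with vehicle. MT3, MT4 and MT1IP were detected on neither array. Over all 15 probes the ABC294640 array detected 10 and the vehicle array 5.

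A second probe for a gene did not always give the same picture. The other MT1E probe, ILMN_1718968, had 219.2 units with ABC294640 and 60.2 with vehicle, a ratio of deposited signals of 3.64. Its bound on the normalized scale was 6.54-fold, with log2 bounds from 1.69 to 2.96, beside a log2 ratio of 5.38 to 6.19 for ILMN_2173611. The other MT1H probe, ILMN_1683923, had 55.3 units with ABC294640 and 56 with vehicle and was detected on neither array, although ILMN_2124802 reached 2519.6 units with ABC294640. Human MT1 transcripts are highly similar in sequence, and probe sequences were not used here. Which transcripts each probe binds was not tested, so a ratio belongs to its probe first and to the named gene with less certainty.

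Along chromosome 16 the RefSeq annotation places the measured genes in the order MT4, MT3, MT2A, MT1L, MT1E, MT1M, MT1A, MT1B, MT1F, MT1G, MT1H, MT1IP and MT1X. The probes higher with ABC294640 lay from MT2A to MT1X, with MT1M and MT1IP undetected between them and MT4 and MT3 undetected at one end. The 3 nearest protein-coding genes with a named probe on each side, looked up after the members' values were known, did not share the large ratios. Before MT4, the log2 ratio was -0.46 for NUDT21, which encodes a cleavage factor of mRNA 3' ends, and -1.11 for BBS2, which encodes a subunit of the ciliary BBSome. OGFOD1, a ribosomal protein hydroxylase, had a log2 ratio of 0.55 by its brightest probe and -0.23 by another. After MT1X, the nuclear pore gene NUP93 had a log2 ratio of 0.25, and SLC12A3 and CETP were detected on neither array. A second BBS2 probe had a log2 ratio of -1.32. By the probe that stands for each gene the neighbours differed by at most 2.16-fold, in BBS2, while the detected metallothionein members differed by 13.8-fold or more.

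**Figure D3:**
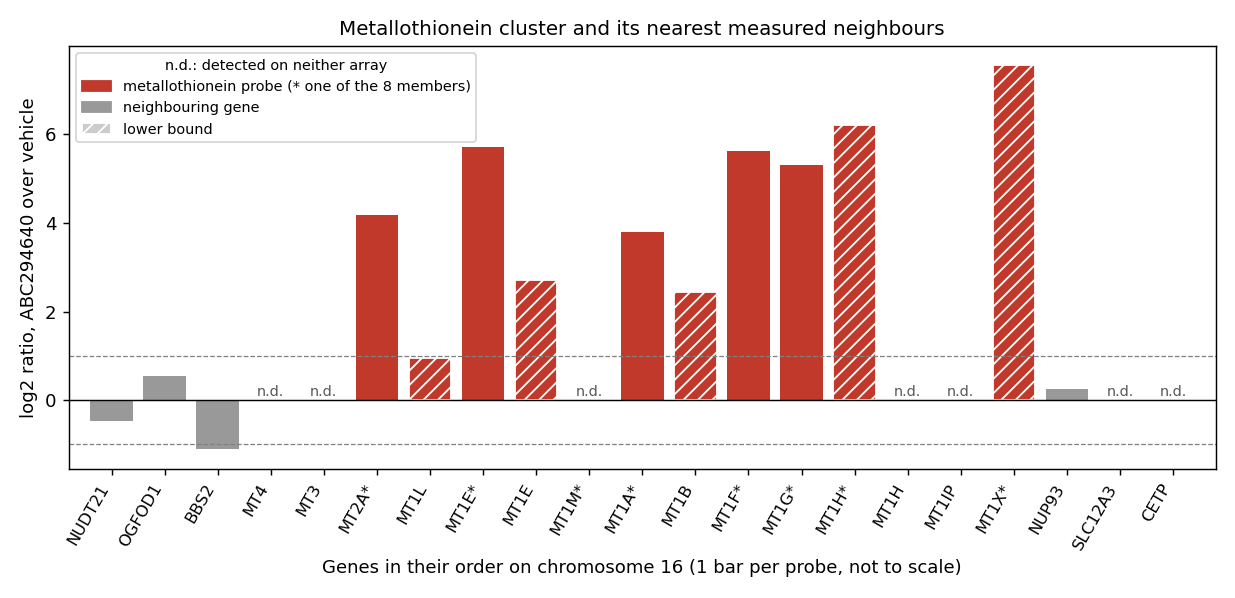
Log2 ratio of ABC294640 over vehicle for each metallothionein probe and for the nearest measured genes on both sides, in their order on chromosome 16; hatched bars are lower bounds and n.d. marks probes detected on neither array. Bars from MT2A to MT1X reach up to 7.56, whereas the neighbours lie between -1.11 and 0.55.

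Promoter sequences were held for 5 family genes in the table used here, each 250 bases before and 50 after the RefSeq start site on GRCh38.p14. For 8 other family genes with a probe, among them MT1A, MT1E, MT1F, MT1G and MT1M, no promoter was held. Shown are the windows of MT2A, MT1H and MT1X, which were far brighter with ABC294640. The window of MT4, from the same cluster and detected on neither array, is shown beside them. Capitals mark matches to the core of the metal response element, TGCACNC or TGCGCNC on the gene strand and GNGTGCA or GNGCGCA where the match is on the other strand. The windows are chr16:56608334-56608633, chr16:56669564-56669863, chr16:56682220-56682519 and chr16:56564823-56565122, all on the plus strand.
MT2A promoter: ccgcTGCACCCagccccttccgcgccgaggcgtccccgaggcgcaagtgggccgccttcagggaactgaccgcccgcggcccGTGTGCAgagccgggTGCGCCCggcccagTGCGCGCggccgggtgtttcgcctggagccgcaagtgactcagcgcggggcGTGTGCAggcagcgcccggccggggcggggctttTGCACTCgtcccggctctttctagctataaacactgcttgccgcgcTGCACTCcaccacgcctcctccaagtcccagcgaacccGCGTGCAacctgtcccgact
MT1H promoter: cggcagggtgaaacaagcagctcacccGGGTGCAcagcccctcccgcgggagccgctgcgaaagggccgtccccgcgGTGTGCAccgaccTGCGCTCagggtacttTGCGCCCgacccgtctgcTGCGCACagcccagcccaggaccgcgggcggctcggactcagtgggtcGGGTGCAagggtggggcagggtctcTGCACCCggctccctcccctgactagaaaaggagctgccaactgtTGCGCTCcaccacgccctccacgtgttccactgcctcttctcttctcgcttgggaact
MT1X promoter: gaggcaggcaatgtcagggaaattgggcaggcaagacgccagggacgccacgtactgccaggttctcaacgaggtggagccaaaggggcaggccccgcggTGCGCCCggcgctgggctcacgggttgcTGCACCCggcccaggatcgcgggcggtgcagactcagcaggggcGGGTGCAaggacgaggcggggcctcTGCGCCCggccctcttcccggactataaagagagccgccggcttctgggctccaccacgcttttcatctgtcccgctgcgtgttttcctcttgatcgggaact
MT4 promoter: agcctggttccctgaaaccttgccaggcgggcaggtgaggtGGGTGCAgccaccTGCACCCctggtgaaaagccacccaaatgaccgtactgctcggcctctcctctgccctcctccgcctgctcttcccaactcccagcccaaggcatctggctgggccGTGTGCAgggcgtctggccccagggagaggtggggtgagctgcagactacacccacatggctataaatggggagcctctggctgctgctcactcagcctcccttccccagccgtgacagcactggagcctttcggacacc

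The MT2A and MT1H windows each held 8 matches to the metal response core, MT1X 4, MT1B 3 and MT4 3. Among 35116 promoter windows of the same length, 29.6% held at least 1 match, 2.3% at least 3, 0.601% at least 4 and 0.0199% at least 8. The matches of MT1H, MT1X and MT1B included one at bases -53 to -47 from the start site, and MT2A had one at -54 to -48; the nearest match of MT4 lay at -90 to -84. A TATA box, TATAAA on the gene strand, was found in MT2A, MT1X, MT1B and MT4 and in 7.33% of all windows. The antioxidant response core, TGACNNNGC on either strand, was found once each in MT2A, MT1X and MT1B and in 13.3% of all windows, and it overlapped no metal response match. A match describes letters in this window and is not a measured binding site. Whether the number or place of matches is related to the ratios was not tested.

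**Figure D4:**
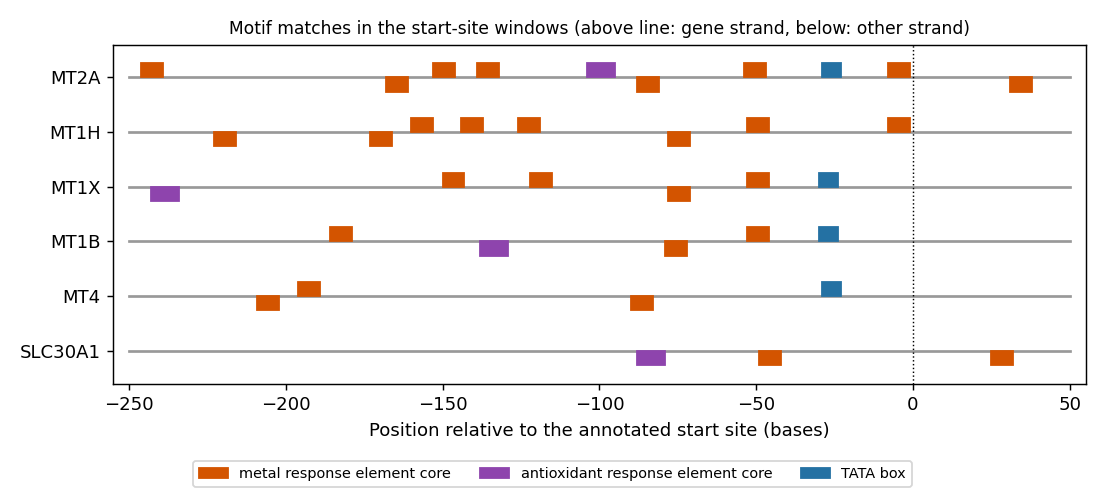
Positions of motif matches (coloured boxes) from 250 bases before to 50 after the start site in the windows of 5 metallothionein genes and SLC30A1, drawn above the line for the gene strand and below it for the other strand. MT2A and MT1H carry 8 metal response matches each, MT4 carries 3 and SLC30A1 carries 2.

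MTF1, the zinc sensor itself, was not among the genes with higher signal. Its probe had 167 units with ABC294640 and 386.3 with vehicle, and the log2 ratio after normalization was -0.63. The metal-responsive regulators also included SP1, a general promoter factor, with a log2 ratio of -0.69, and NFE2L2, the activator of antioxidant genes, with -0.57. The glucocorticoid receptor gene NR3C1 had 103.1 units with ABC294640 and 161.8 with vehicle, a log2 ratio of -0.20. All 6 genes of this list were detected and 0 passed 2-fold in either direction, with a median log2 ratio of -0.38. Over the 10883 named genes detected on at least 1 array, each by its probe of highest mean signal, 6.99% were at least 2-fold higher and 8.36% at least 2-fold lower, and the median log2 ratio was -0.10.

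The zinc transporters held 1 gene with a ratio as large as those of the metallothioneins, and it was an exporter. SLC30A1, the zinc exporter of the plasma membrane and a known target of MTF1, had 1382.4 units with ABC294640 and 134.8 with vehicle, a log2 ratio of 4.40 or 21.1-fold higher. Its other probe had 1172.3 units with ABC294640 and 130.8 with vehicle and a log2 ratio of 4.23, so both probes gave a similar ratio. Of the 10 genes of the exporter and vesicular group, 5 were detected. By the probe that stands for each gene, and with SLC30A6 at its bound, SLC30A1 was the only one past 2-fold. SLC30A6, named after its value was seen, was detected with vehicle only. Its measured log2 ratio was -1.47 and its bound -0.68, which leaves a difference of 2-fold or more possible. The Golgi and secretory pathway transporters SLC30A5 and SLC30A7 had log2 ratios of -0.37 and -0.33. Other SLC30A5 probes detected on both arrays gave -1.17 and -1.11, past 2-fold lower. The first had 749.6 units with vehicle, against 700.1 for the probe that stands for the gene. The second reached -0.83 with other processing, so its 2-fold call was lost there. SLC30A9 had -0.50. The median of the 5 was -0.37.

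The SLC30A1 start-site window, chr1:211579112-211579411 on the minus strand of GRCh38.p14, is shown with the same marking because its gene had a ratio of the size seen for MT2A.
SLC30A1 promoter: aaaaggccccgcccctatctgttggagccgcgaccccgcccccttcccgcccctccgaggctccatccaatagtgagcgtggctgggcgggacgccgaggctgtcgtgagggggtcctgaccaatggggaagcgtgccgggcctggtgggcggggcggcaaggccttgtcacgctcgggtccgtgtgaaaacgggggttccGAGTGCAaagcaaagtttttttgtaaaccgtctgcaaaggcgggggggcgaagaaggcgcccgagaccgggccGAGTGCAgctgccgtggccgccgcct

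It held 2 metal response matches, at bases -49 to -43 and 25 to 31 from the start site, both on the other strand; 8.6% of all windows held at least 2. One antioxidant core lay at -88 to -80.

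Of 14 zinc importers, 11 were detected, with 1 at least 2-fold higher and 1 at least 2-fold lower. SLC39A10, a plasma membrane importer whose mouse counterpart is known to be repressed by Mtf1, had 278.4 units with ABC294640 and 1421.4 with vehicle, a log2 ratio of -1.84 or 3.58-fold lower. SLC39A4, the importer mutated in acrodermatitis enteropathica, had 232.2 units with ABC294640 and 174.7 with vehicle, a log2 ratio of 1.30. The ratio ran from 0.53 to 1.34 with the processing, so this 2-fold call was lost under at least 1 setting. The other SLC39A4 probes were detected on neither array. SLC39A3 and SLC39A6 had log2 ratios of 0.48 and -0.46, and a dim SLC39A3 probe, detected with vehicle only, did not share the positive sign. The median of the 11 importers was 0.01, near the -0.10 of all named genes.

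Copper and iron genes had smaller ratios than SLC30A1. Of 13 copper genes, 12 were detected, 1 was at least 2-fold higher and 1 at least 2-fold lower, which is near the 6.99% and 8.36% of all named genes, with a median log2 ratio of 0.43. COMMD1, a regulator of copper export, had 674.1 units with ABC294640 and 527.6 with vehicle, a log2 ratio of 1.10 that ran from 0.38 to 1.19 with the processing, so the one higher call among copper genes was lost under at least 1 setting. The copper-exporting ATPase gene ATP7A had 59.7 units with ABC294640, where it was not detected, and 162.2 with vehicle, a bound of 2.13-fold lower on the normalized scale. Its log2 bound ran from -1.67 to -0.60, so this call was lost under at least 1 other processing. STEAP3, SCO2 and ATP7B had log2 ratios of 0.99, 0.84 and -0.86. Among 9 iron genes, 7 had a named probe and 5 were detected, with a median log2 ratio of -0.39. The haem-degrading enzyme gene HMOX1 had 891.5 units with ABC294640 and 395.4 with vehicle, a log2 ratio of 1.96 or 3.9-fold higher. The transferrin receptor gene TFRC had 5217.4 units with ABC294640 and 11583.8 with vehicle, a log2 ratio of -1.19. This was the lowest of its 6 values, which reached -0.35, so its 2-fold call was lost too. ACO1 and FTL had log2 ratios of -0.50 and -0.39.

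Of the 8 glucocorticoid-responsive genes, 7 were detected, and 0 passed 2-fold in either direction when genes detected on 1 array were taken at their bounds. The clock gene PER1 and the transcription factor gene KLF9, singled out after their values were seen, were detected with vehicle only. Their measured log2 ratios were -1.44 and -1.11 and their bounds -0.73 and -0.09, which leave a difference of 2-fold or more possible. TSC22D3, also known as GILZ, had 2590.6 units with ABC294640 and 5063.6 with vehicle, a log2 ratio of -0.82. SGK1 had a log2 ratio of -0.74, FKBP5 0.35 and DUSP1 -0.08. The median of the 7 was -0.74 by measured ratios, with PER1 and KLF9 included. With those genes at their bounds, the middle value was that of KLF9, -0.09. Over all 6 lists, 46 of 60 genes were detected, 4 were at least 2-fold higher and 3 at least 2-fold lower, close to the 6.99% and 8.36% of all named genes. SLC30A1 had the largest ratio of the 46.

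**Figure D5:**
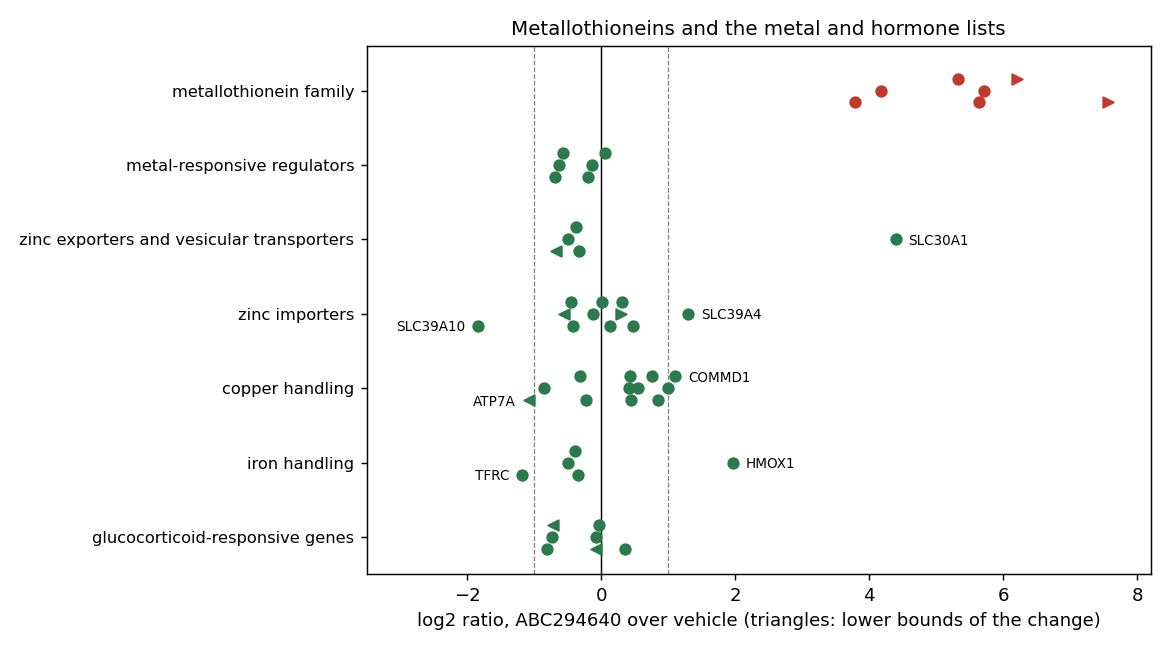
Log2 ratio of ABC294640 over vehicle for the 7 detected metallothionein members (red) and for detected genes of 6 metal and hormone lists (green, 1 probe per gene), with triangles for lower bounds and dashed lines at 2-fold. SLC30A1, at 4.40, is the one list gene within the range of the metallothioneins, which runs from 3.79 to 7.56.

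The direction of moderate ratios depended on how the arrays were scaled. Across the 18233 probes the middle log2 ratio, -0.07 as reported, became 0.16 when arrays were scaled to a common median and -0.65 when they were not normalized to each other. Under the reported processing and 5 other ways to scale or correct background, the log2 ratio ran from 3.65 to 4.64 for SLC30A1, from -2.52 to -1.67 for SLC39A10, from 1.27 to 2.07 for HMOX1 and from -1.42 to -0.50 for MTF1. The sign turned under at least 1 of them for SLC39A3, FKBP5, FTL, DUSP1, OGFOD1 and NUP93. PER1 and KLF9 were not followed across these settings. No other list gene or neighbour named with a log2 ratio changed sign.

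Other features of the arrays differed between the groups along with the metallothioneins. Small structured RNAs, such as spliceosomal, nucleolar and ribosomal RNAs, were taken by their RefSeq class. Of their 113 detected probes, 52 passed 2-fold towards ABC294640 and 1 towards vehicle. Over all 18233 detected probes these shares were 7.38% and 6.96%. Among the 36 probes past 16-fold, which are 0.197% of all detected probes, 12 belonged to this class. RN7SK, a regulator of transcription elongation, had 8856.6 units with ABC294640 and 93.9 with vehicle, a log2 ratio of 7.55 after normalization. The part of this shift in the metallothionein ratios was not tested. The arrays detected 15957 probes with ABC294640 and 17477 with vehicle.

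The endothelial label was checked against markers. Of 12 endothelial markers, 2 were detected on each array, TEK and ENG. PECAM1, CDH5, KDR, TIE1, VWF, ERG, ESAM, ROBO4, EGFL7 and CLDN5 were detected on neither. TEK passed narrowly, with detection p-values of 0.00779 with ABC294640 and 0.00909 with vehicle, and its other probe was detected on neither array. Summed over 16 probes the endothelial markers came to 998.4 units with ABC294640 and 1056.6 with vehicle. Most of these probes were undetected and background is included, so the sums hold mostly background. None of 4 lymphatic endothelial markers was detected. Of 7 fibroblast markers 3 were detected. The 12 probes of the 7 genes, undetected ones and background included, summed to 2549.3 units with ABC294640 and 3580.4 with vehicle. These sums are not normalized between the arrays. After normalization the 3 detected genes, ACTA2, DCN and LUM, had log2 ratios of -0.07, -0.14 and 0.40. ACTA2 was the brightest of them, with 1549.7 units with ABC294640 and 2175.2 with vehicle. Epithelial KRT8 and the monocyte gene CD14 were the one detected marker of 5 and of 4 genes with a probe, with log2 ratios of 1.63 and 1.90. The CD14 probe was dim, with 171.3 units with ABC294640 and 95.8 with vehicle, a ratio of deposited signals of 1.79. Another CD14 probe was detected on neither array. The part of these genes in the metallothionein ratios was not tested.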

How the data were processed

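Total RNA of 1 array per group was hybridised to Illumina beadchips. The deposited intensity values are 1 signal per probe and array, with no background subtraction visible in them; beside each the authors deposited a detection p-value. The submitters' processing notes name GenomeStudio, with settings not given in the sources used here. A value table of the same arrays, whose columns both have a median of 62.1 and follow the signals closely in rank, was used as an alternative; its scale appears linear and its normalization is not stated.

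Of 47323 probes, 5 with signal and detection p-value at 0 on both arrays were left out. R 4.3.3 with limma 3.58.1 served to correct background (normexp), with negative controls inferred from the detection p-values. An offset of 16 was added, log2 taken and the arrays quantile-normalized. Adding an offset shrinks the ratios of dim probes, and quantile normalization removes an overall difference in brightness. A probe detected on 1 array got a bound on its ratio, against the lowest detected value of the other array or its own value there if higher; a median over a list uses measured ratios. The procedure was tested on simulated data, with planted changes smaller than the members' ratios and only in probes detected with vehicle. Ratios as large as those of the members, and bounds for probes undetected with vehicle, were not covered by it.

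Of the probes, 30113 had 1 symbol in the platform annotation, 8 had several and 17202 had none. Symbols were updated to RefSeq, GRCh38.p14. The probe of highest mean signal stood for a gene. Named in the text are all family probes, the 4 genes of each list with the largest ratios among those detected on both arrays, and MTF1, SLC30A1 and NR3C1. The members and lists were chosen with earlier results of these data known. ATP7A, SLC30A6, the flanking genes and the small RNAs were chosen after their values were seen. The precision of every ratio is limited by the number of arrays.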

Additional observations from a re-analysis of the deposited data

How the results depend on the processing

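The counts of 7 members higher and 0 lower were obtained in all 10 alternatives run for them: no background correction, an offset of 50, cyclic loess, median scaling, no between-array normalization, detection at 0.05 or unfiltered, measured ratios used where bounds stood, and thresholds of 1.5-fold and 4-fold. The median log2 ratio of the members, 5.48, was 4.75 without background correction and moved by under 1.5-fold in the other 6 alternatives, among them the deposited value table. The single ratios kept their sign in all 49 recomputed values, of which 10 moved by 1.5-fold or more. They ran from 6.25 to 8.22 for MT1X, 4.91 to 6.77 for MT1H, 5.38 to 6.19 for MT1E, 5.30 to 6.10 for MT1F, 4.58 to 5.67 for MT1G, 3.93 to 4.74 for MT2A and 3.57 to 4.38 for MT1A. Using measured ratios for bounded probes was, for single ratios and their median, chosen after seeing the data. Over the 6 lists, the 4 higher genes became 2 without background correction, 2 without normalization between arrays, 5 with cyclic loess, 6 with median scaling, 7 at 1.5-fold and 1 at 4-fold. The 3 lower genes became 2 without background correction, with an offset of 50 or with cyclic loess, 1 with median scaling, 15 without normalization, 6 with the measured ratio, 5 at a detection threshold of 0.05, 6 without a detection filter, 10 at 1.5-fold and 0 at 4-fold. The cause of these moves was not tested beyond what each threshold sets by construction. Signal over background limits MT1X, MT1H and MT1B to bounds. No paired analysis was possible because there is only 1 array a group.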
